A study of Homo sapiens with 6 samples.

Results

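Olfactory receptor genes on human chromosome 11 were examined in H1 human pluripotent stem cells as a class of genes whose products serve in another cell type. Members were the protein-coding genes of the RefSeq annotation on chromosome 11 whose symbol is OR followed by a number, letters and a number, such as OR4C3. The rule gave 171 genes, and 168 of them had a position on the chromosome sequence. OR8U8, OR8U9 and OR9G9 carried positions on alternate scaffolds and have no value below. The 168 genes stand among 1297 protein-coding genes placed on chromosome 11 and 19866 placed in all. The measurement was ATAC-seq, which cuts accessible DNA with a transposase, on about 50000 nuclei per library. H1 is an embryonic stem cell line, grown here in mTeSR1 on Matrigel. Cells were infected with lentivirus made in 293T cells and selected with puromycin. The 4 shHNRNPU libraries carried a short hairpin RNA against HNRNPU, a nuclear RNA-binding protein that shapes chromatin, and came from 2 hairpins, shHNRNPU #1 and shHNRNPU #2, with 2 repeats each. The 2 shLUC libraries carried a hairpin against luciferase and served as controls. No RNA values were analysed here, so the depletion of HNRNPU in these libraries was not checked.

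Olfactory receptors are G-protein-coupled receptors, each made from a coding region with no intron, and they form the largest gene family of the human genome. An olfactory sensory neuron transcribes a single receptor allele and keeps the other copies in compact chromatin, and most other tissues do not transcribe them. Chromosome 11 carries nearly all human class I receptors, the families 51 to 56 that resemble receptors of fish, and many class II receptors, the families of land vertebrates. Of the 168 placed members, 55 were class I and 113 class II, and they fell into 11 families, of which OR5 was the largest with 34 members. The median annotated length was 1103 bp, and 162 members lay in 13 clusters of at least 2 members whose neighbours were at most 100 kb apart. These clusters covered 4.61 Mb.

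Each library was given as a list of summits, the single bases at which MACS2 placed the top of an enriched stretch, and each summit had a score, the −log10 of its q-value. A gene end was called open when a summit lay within 2000 bp of either end of the gene. The lists held between 52168 and 63519 summits, with a median score between 6.91 and 8.43, and chromosome 11 held between 5.29% and 5.47% of them. Read depth is unknown and scores were not scaled between libraries, so a score was also given as its percentile within the list of its own library. Of 10 pluripotency genes, 9 were open in all 6 libraries, among them POU5F1, NANOG and SOX2, and LIN28B in none. NANOG had 2, 2, 1 and 1 gene-end summits in the shHNRNPU libraries and 3 in each shLUC library. SOX2 had 1, 2, 1 and 2 against 3 in each, so both were lower in shHNRNPU without overlap. Of all 19866 protein-coding genes, 69.0% were open in all 6 libraries and 1.02% were lower in this way. The separation rests on 1 to 3 summits a gene, and the other listed pluripotency genes, POU5F1 among them, did not separate the groups. Of 5 markers of olfactory neurons, OMP and CNGA2 were open in no library, RTP1 in 1 library, and GNAL and ADCY3 in all 6.

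Promoter sequences are shown for the members with summits inside the 300 bases around their start, and for TRIM68, a gene inside another stretch of the clusters that is no receptor. They are RefSeq sequences of GRCh38.p14, from 250 bases before to 50 after the start, written 5′ to 3′ on the strand of the gene, with CpG dinucleotides in capitals. OR52N2 lies at chr11:5808674-5808973 on the plus strand, OR5A2 at chr11:59426364-59426663 on the minus strand, OR52E5 at chr11:5892958-5893257 on the plus strand and TRIM68 at chr11:4608182-4608481 on the minus strand.
OR52N2: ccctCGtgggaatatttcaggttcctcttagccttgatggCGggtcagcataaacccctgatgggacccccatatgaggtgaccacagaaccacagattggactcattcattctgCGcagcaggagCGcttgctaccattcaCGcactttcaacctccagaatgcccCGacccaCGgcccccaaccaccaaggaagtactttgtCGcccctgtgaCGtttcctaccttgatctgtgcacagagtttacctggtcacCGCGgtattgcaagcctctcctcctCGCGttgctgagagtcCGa
OR5A2: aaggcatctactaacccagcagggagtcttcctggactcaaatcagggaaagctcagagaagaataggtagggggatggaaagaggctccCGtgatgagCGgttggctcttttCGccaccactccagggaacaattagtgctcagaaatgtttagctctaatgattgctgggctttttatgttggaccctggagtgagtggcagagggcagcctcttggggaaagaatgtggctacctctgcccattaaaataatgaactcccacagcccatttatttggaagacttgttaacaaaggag
OR52E5: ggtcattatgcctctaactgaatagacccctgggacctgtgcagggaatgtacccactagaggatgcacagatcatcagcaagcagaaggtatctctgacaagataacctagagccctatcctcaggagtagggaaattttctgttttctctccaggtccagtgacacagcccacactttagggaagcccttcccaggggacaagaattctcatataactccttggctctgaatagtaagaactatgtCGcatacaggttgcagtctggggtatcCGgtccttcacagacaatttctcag
TRIM68: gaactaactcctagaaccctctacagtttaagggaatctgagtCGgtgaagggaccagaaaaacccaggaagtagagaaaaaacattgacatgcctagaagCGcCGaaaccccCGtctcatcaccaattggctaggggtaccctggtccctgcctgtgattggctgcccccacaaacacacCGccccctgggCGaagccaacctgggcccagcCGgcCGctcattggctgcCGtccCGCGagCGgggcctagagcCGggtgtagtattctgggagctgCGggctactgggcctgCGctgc

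The OR52N2 promoter had 14 CpGs and a GC content of 55.3%, the OR5A2 promoter 3 CpGs and 48.3%, the OR52E5 promoter 2 CpGs and 48.0%, and the TRIM68 promoter 15 CpGs and 60.0%. Other genes open in all 6 libraries, not printed, had fewer CpGs than TRIM68. The promoter of the member OR6A2 had 1 CpG and 45.3%. Those of TRIM21 and MMP26, which also lie inside the clusters, had 6 CpGs and 55.7%, and 0 CpGs and 39.0%. A promoter sequence was given for 135 of the 168 placed members, 80.4% of them. Over these 135 the median GC content was 37.0% and the median number of CpGs was 1, against 62.7% and 22 over 818 other promoters of chromosome 11. At most 3 CpGs were found in 94.8% of the members' promoters and in 12.3% of those 818. OR52N2 had the most CpGs of the 135, and the next was OR51S1 with 6, a member that was open in no library. The class I promoters had a median GC content of 40.0% over 39 entries and the class II promoters 37.0% over 96. Receptor genes on other chromosomes were alike in this respect, with a median GC content of 38.3% and a median of 1 CpG over 177 promoters. The members were short, with a median of 1103 bp, and the annotated start of OR52J3 was the first base of an ATG. Where an annotated start is that of the coding region, transcription may begin farther upstream. That start could lie outside the sequence used for composition and motifs, or beyond the 2000 bp window. How many members this concerns was not tested.

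Motifs were searched on both strands and overlapping matches were allowed. TATAAA, the sequence of the TATA box, was found in 35.6% of the members' promoters and in 9.63% of all 15843 protein-coding promoters. It was counted on either strand and at any position, so these are shares with the hexamer. They are not shares with a TATA box on the gene's strand at a set distance before the start. The core TAATTA, which homeodomain proteins such as LHX2 bind, was found in 24.4% against 3.34%. The core CCCNNGGG, bound by EBF proteins, was found in 8.15% against 21.6%. TATAAA and TAATTA hold no G or C, and every fixed base of CCCNNGGG is G or C. The part of the members' low GC content in all of these shares was not tested. None of the 3 motifs was found in the OR52N2 or OR5A2 promoter. OR52E5 held CCCNNGGG at 2 places, and TRIM68 at 1.

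Nearly all members were closed in every library. Of the 168 placed members, 155 had no summit within 2000 bp of an end in any of the 6 libraries, 13 had a summit in at least 1 library, and 4 had a summit in all 6. These 4 were OR52N2 and OR51D1 of class I, and OR5A2 and OR6A2 of class II. OR52K1 was open in 4 libraries, and the other 8 members were open in 1 library each. The number open was 5 and 6 in the shHNRNPU #1 libraries, 6 and 4 in the shHNRNPU #2 libraries, and 6 and 9 in the shLUC libraries. As a share of 168 the lowest was 2.38% (95% Wilson interval 0.93 to 5.96%) and the highest 5.36% (2.84 to 9.87%), where the intervals cover counting error only.

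OR52N2 was open at its 5′ end. Its highest score was 9.57 and 18.1 in the shHNRNPU #1 libraries, 8.28 and 10.5 in the shHNRNPU #2 libraries, and 19.4 and 12.2 in the shLUC libraries. The groups overlapped, and shLUC repeat 1 and shHNRNPU #1 repeat 2 were the high libraries. The nearest summit lay between 19 and 310 bp upstream of the annotated start in every library, and inside the printed promoter in 2 of them, shHNRNPU #2 repeat 1 at 19 bp and shLUC repeat 2 at 176 bp. A further summit 1101 bp upstream was listed in shHNRNPU #2 repeat 1, with a score of 5.80.

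OR51D1 had a single summit in each library. The scores were 12 and 17.8 in shHNRNPU #1, 10.9 and 12.2 in shHNRNPU #2, and 14.6 and 12 in shLUC, and the groups overlapped. The summits lay outside the gene, between 178 and 439 bp from the end with the lower coordinate, and at least 28.8 kb from TRIM68, the nearest protein-coding gene that is no receptor. They spanned 261 bp between libraries, so they were the most tightly placed of the 4 members open in all libraries. No strand was given for this gene.

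OR5A2 was open at its 5′ end, with scores of 5.54 and 9.36 in shHNRNPU #1, 4.24 and 5.81 in shHNRNPU #2, and 9.51 and 3.79 in shLUC. The groups overlapped, and the control repeats held both the highest and the lowest score. In 5 libraries the summit lay between 34 and 187 bp upstream of the start, inside the printed promoter, and in shLUC repeat 2 it lay 460 bp upstream. OR6A2, a receptor known for its link to the soapy smell of coriander aldehydes, had scores of 4.57 and 9.25 in shHNRNPU #1, 4.19 and 8.16 in shHNRNPU #2, and 8.29 and 2.92 in shLUC. Its summits lay farther out, between 1139 and 1650 bp upstream of the start, so a window of 500 bp would not count this gene. The groups overlapped, with shLUC repeat 2 as the lowest library and shLUC repeat 1 within the shHNRNPU range.

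OR52K1 was open at its 3′ end, inside the gene and between 63 and 229 bp from that end. The score was 8.43 and 8.33 in shHNRNPU #1, 7.01 in shHNRNPU #2 repeat 1 and 14.5 in shLUC repeat 2. No summit was listed for it in shHNRNPU #2 repeat 2 or in shLUC repeat 1, so each group held a library without it. The nearest summit in those 2 libraries was 46376 and 16711 bp from the summit in shLUC repeat 2.

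The 8 members open in a single library had lower scores, with a median of 3.22 and a range from 2.08 to 6.05, against a median of 9.36 over the 25 summits of the 4 members open in all libraries. A shLUC library held 6 of the 8, where 250 of the 638 protein-coding genes open in a single library (39.2%) were open in a shLUC library, and this difference was not tested. OR10D3, OR56A3, OR8D1 and OR8D4 were open in shLUC repeat 2 and OR52J3 and OR52E5 in shLUC repeat 1. The remaining members were OR5A1, a receptor for the violet odorant β-ionone, open in shHNRNPU #2 repeat 1 with a score of 5.12, and OR10S1, open in shHNRNPU #1 repeat 2 with a score of 2.63. Of the 8, the summit lay less than 500 bp from an end in OR52E5 at 9 bp, OR8D1 at 176 bp, OR10S1 at 284 bp and OR52J3 at 451 bp, and at least 1214 bp away in the others.

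**Figure D1:**
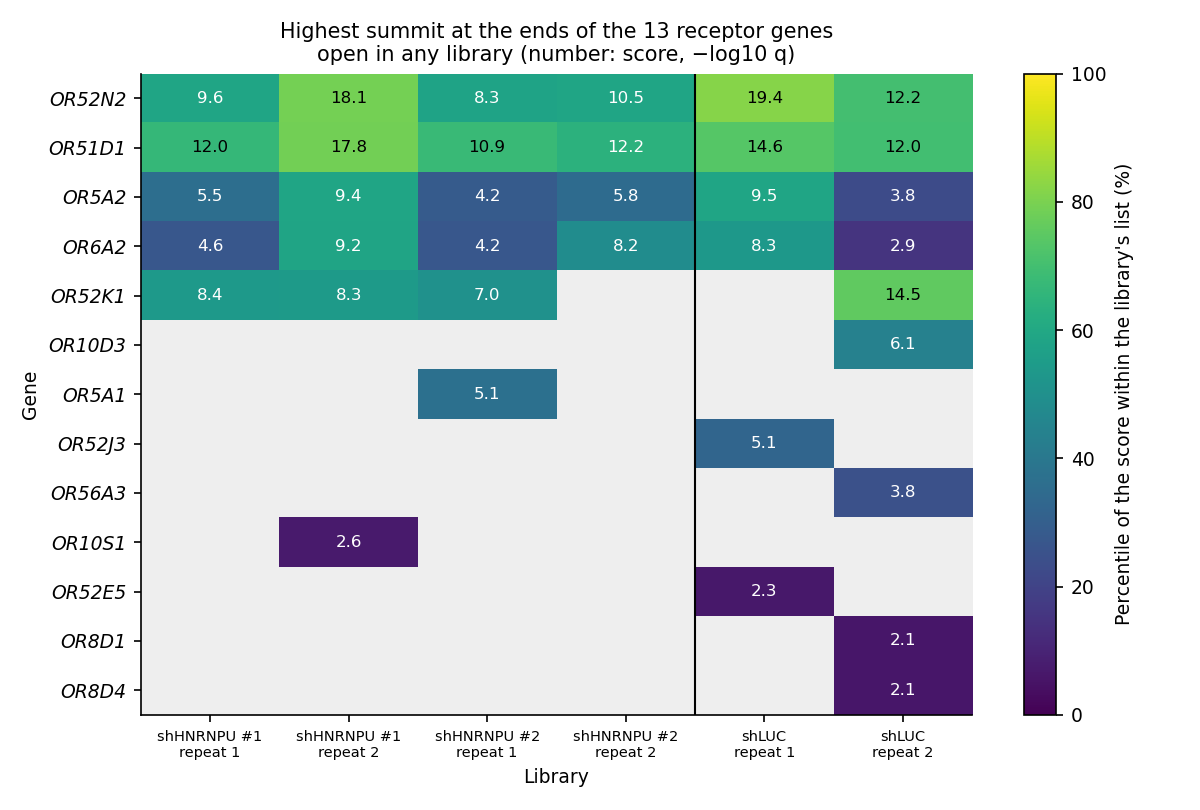
Scores at the 13 receptor genes of chromosome 11 that were open in any library. Rows are genes, columns are the 6 libraries with the shHNRNPU libraries left of the line, colour gives the percentile of the highest score within its library (%), the printed number is that score (−log10 q) and grey marks no summit within 2000 bp. OR52N2, OR51D1, OR5A2 and OR6A2 are filled in all 6 columns, and the 8 lower rows have a single filled cell each.

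The members were far less often open than other genes of the same chromosome. Between 75.7% and 77.6% of 1129 other protein-coding genes of chromosome 11 were open in a library, against 2.38% to 5.36% of the members. The share was alike in receptor genes on other chromosomes, with 3.20% to 5.02% of 219. Of 24 bitter taste receptor genes 0% to 8.33% were open. Of 94 keratin-associated protein genes 6.38% to 8.51% were open, above the members in every library, and their ends held 15.8 to 20.3 summits per Mb. Class I members were open more often than class II members in 6 of 6 libraries, at 3.64% to 7.27% against 1.77% to 4.42%, but these shares rest on 2 to 4 and 2 to 5 genes, and the difference was not tested.

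**Figure D2:**
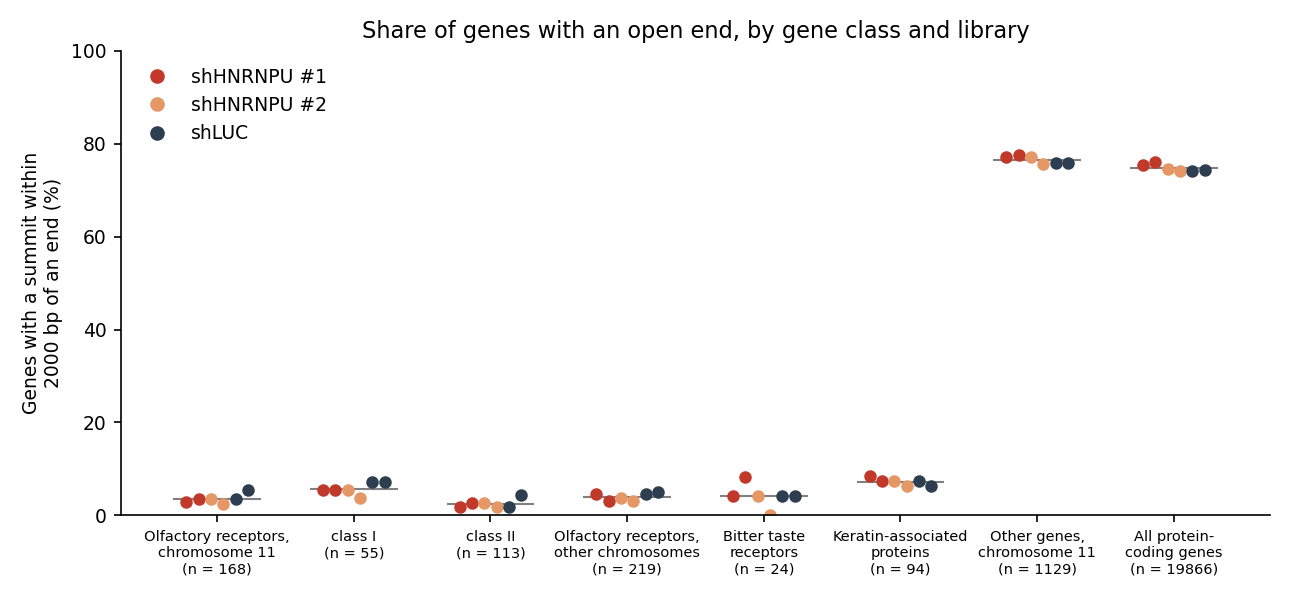
Share of genes with a summit within 2000 bp of either end (%), by gene class. Each point is a library, coloured by hairpin, and the grey line is the mean of 6 libraries. Receptor genes of chromosome 11 sit between 2.38% and 5.36%, and other genes of the chromosome between 75.7% and 77.6%.

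Counted per length, the windows around the members' ends held between 3.87 and 8.70 summits per Mb, and those around the ends of the other protein-coding genes of chromosome 11 between 124 and 131. The log2 ratio of these densities was −4.45 ± 0.40 (SD, n = 6 libraries), a density 21.9 times lower, and lay between −5.00 and −3.85 in the single libraries. All 6 libraries had the same direction, and the exact sign-flip permutation test over libraries gave p = 0.03125, two-sided, the smallest value that 6 libraries allow. The bodies of the members held 3 to 11 summits in 1.02 Mb, or 2.95 to 10.8 per Mb. The clusters as a whole held between 6.51 and 9.97 summits per Mb, against 21.7 to 26.0 in the rest of chromosome 11. That log2 ratio was −1.48 ± 0.17 (SD, n = 6 libraries), or 2.78 times lower, with the same exact p = 0.03125. The libraries are cultures of a single cell line, so this p covers the spread between libraries and not between lines. How reads that map to several places were treated is not given in the sources used here, and its part in the low density of a gene family with similar members was not tested.

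Members were also far from any summit. The median distance from a member to the nearest summit was 49.4 and 46.1 kb in shHNRNPU #1, 45.9 and 50.2 kb in shHNRNPU #2, and 41.1 and 42.5 kb in shLUC. For the other protein-coding genes of chromosome 11 the median was between 0.19 and 0.23 kb. Class I members lay nearer to a summit than class II members in 6 of 6 libraries, with medians of 18.9 to 25.3 kb against 57.0 to 101 kb. Between 13.7% and 19.0% of the members had a summit within 10 kb.

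The 13 clusters differed among themselves. The 3 class I clusters, near the tip of the short arm, had a density between 10.6 and 17.8 summits per Mb over the libraries. The cluster from OR52B4 to OR51V1, with 26 members, held 9 to 13 summits per library, and OR51D1 had the strongest summit at a member. The cluster from OR51B4 to OR52B6, with 11 members, held 3 to 5 summits, none of them at a member's end. The cluster from OR52N4 to OR52W1, with 18 members, held 5 to 8, and OR52N2 was the strongest member.

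The 2 class II clusters that follow on the short arm were about as dense as the class I clusters, and most of the others were poorer. The cluster from OR2AG2 to OR2D3, which holds OR6A2, had 12.8 to 25.6 summits per Mb, from 2 to 4 summits in 0.16 Mb, and the cluster from OR5P2 to OR10A3 had 1 to 4 summits. Around the centromere the clusters OR4B1 to OR4C5, OR4C13 to OR4C12 and OR4A16 to OR4A15, with 10 members of family OR4 in all, held no summit in any library. The largest cluster, from OR4C15 to OR9G4, had 43 members in 1.19 Mb, and none of them was open in any library. It held only 2 to 4 summits per library, a density of 1.67 to 3.35 per Mb. The cluster from OR9Q1 to OR5B21 held 0 to 2. Of the remaining clusters, OR5AN1 to OR4D9, with OR5A2 as the strongest member, held 1 to 2 summits. OR6X1 to OR10G7, with OR10S1 as the strongest, held 1 to 3, and OR10D3 to OR8A1, with OR10D3, held 3 to 6.

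**Figure D3:**
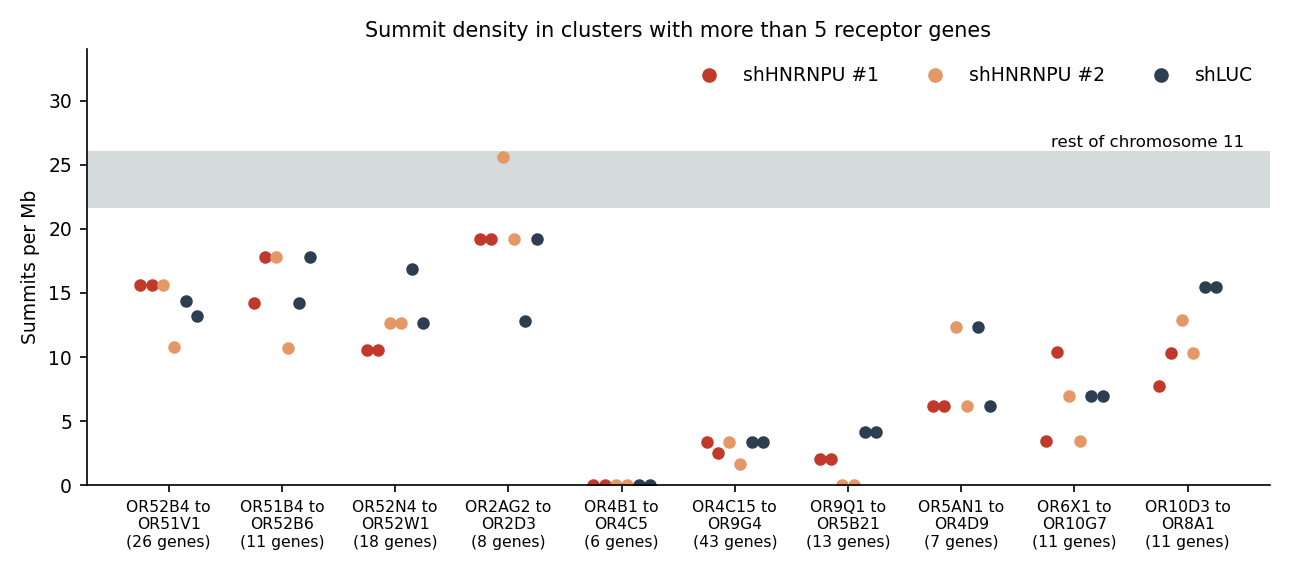
Summits per Mb in the 10 clusters with more than 5 receptor genes, in chromosome order. Each point is a library coloured by hairpin, and the grey band spans the values of the rest of chromosome 11, 21.7 to 26.0 per Mb. The cluster of 43 genes from OR4C15 to OR9G4 lies between 1.67 and 3.35, and OR4B1 to OR4C5 lies at 0.

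Among the other protein-coding genes inside the clusters, 3 were open in all 6 libraries. TRIM68, a ubiquitin ligase, had scores from 33.9 to 60.1. TRIM21, a cytosolic antibody receptor and ubiquitin ligase, had scores from 15 to 19.8. MMP26, a secreted matrix metalloproteinase whose annotated body spans several receptor genes, had scores from 4.96 to 12.6. TRIM51 and TMEM225 had no summit within 2000 bp of an end. The 5 beta-globin genes HBB, HBD, HBG1, HBG2 and HBE1, which lie between the class I clusters, were open in no library either, and the nearest summit was 2.71 to 30.5 kb away.

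Summits within 250 bp of each other were joined into loci. The clusters held 92 loci, of which 41 (44.6%) were listed in a single library and 14 (15.2%) in all 6, against 38.0% and 20.7% of 123131 loci in the genome. Of the 14 loci in all libraries, 2 lay at TRIM21 and TRIM68, and 12 lay neither near a member's end nor near another gene's end. The strongest of these 12 were at chr11:123775476, 21.0 kb from OR6X1, with scores of 22.5 to 49.0, and at chr11:56659937, 3.75 kb from OR5AR1, with scores of 15.5 to 30.6. The second lies in the cluster of 43 genes without an open member. MMP26 and the 4 members open in all 6 libraries gave no locus listed in all 6, because joining split their summits. At these 4 members the summits spanned 261 to 1082 bp, beyond the joining distance of 250 bp. The splitting also made loci listed in 1 library, such as the one at OR5A2 in shLUC repeat 2.

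The shHNRNPU libraries were then set against the shLUC libraries. No gain of open members was detected with shHNRNPU. The number of open members was 5.25 ± 0.96 (SD, n = 4) in shHNRNPU and 7.5 ± 2.1 (SD, n = 2) in shLUC, a difference of −2.25, with means of 5.5 and 5 for the 2 hairpins. It was −0.75 without shLUC repeat 2 and −3.75 without shLUC repeat 1. The groups overlapped, and the exact permutation test over libraries gave p = 0.4, two-sided. With 4 against 2 libraries there are 15 assignments. This test doubles the smaller tail, so its p cannot go below 0.133 for this comparison. Within 5000 bp of an end the difference was −5.5 (exact p = 0.133), and without summits scored under 5 it was −0.25 (exact p = 1). The density around the members' ends differed by −1.93 summits per Mb (exact p = 0.4), by −0.48 without shLUC repeat 2 and by −3.38 without shLUC repeat 1.

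For a member to separate the groups, each shHNRNPU library had to hold more gene-end summits than either shLUC library, or each fewer, and 0 members did so in either direction. Over all 19866 protein-coding genes 0.992% were higher and 1.02% lower in this sense. A locus was called lost when listed in both shLUC and in no shHNRNPU library, and gained in the reverse case. The clusters held 1 lost and 1 gained locus of 92, or 1.09% each, beside 1.93% lost and 0.88% gained in the genome. The lost locus was chr11:58060011, inside the long annotated body of OR9Q1, with scores of 14.6 and 4.32 in the shLUC repeats. The nearest summit was 919 and 907 bp away in the shHNRNPU #1 libraries, and 191324 and 191338 bp away in the shHNRNPU #2 libraries. The gained locus was chr11:6179626, 9.30 kb from OR52B2, with scores of 5.54, 5.32, 12.6 and 5.70 in the 4 shHNRNPU libraries, and the shLUC repeats had their nearest summit at 6113 and 5918 bp.

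The clusters held 39 and 40 summits in shHNRNPU #1, 45 and 30 in shHNRNPU #2, and 46 and 43 in shLUC. As a share of all summits of a library this was 0.0659 ± 0.0082% (SD, n = 4) in shHNRNPU and 0.0720 ± 0.0028% (SD, n = 2) in shLUC, and the groups overlapped (exact permutation p = 0.4). Summits with a score below 5 did not overlap between the groups. They numbered 14 and 14 in shHNRNPU #1, 18 and 7 in shHNRNPU #2, and 19 and 23 in shLUC, a difference of −7.75 with the smallest possible exact p = 0.133. Those scored 5 or more numbered 25, 26, 27 and 23 in shHNRNPU and 27 and 20 in shLUC, and overlapped (exact p = 0.667). As a share of cluster summits, those below 5 made up 23.3% to 40.0% in shHNRNPU and 41.3% and 53.5% in shLUC, without overlap. Over the whole genome the share of summits below 5 was 27.9% to 34.9% in shHNRNPU and 31.3% and 36.2% in shLUC, and those ranges overlapped. Loci listed in 1 library numbered 1, 7, 7 and 0 in the shHNRNPU libraries and 14 and 12 in shLUC. Over the genome such loci also separated the groups, with 4569 to 9024 in the shHNRNPU libraries and 9601 and 9398 in shLUC. The shLUC libraries held 63.4% of the 41 in the clusters and 40.6% of the 46814 in the genome, a difference that was not tested.

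**Figure D4:**
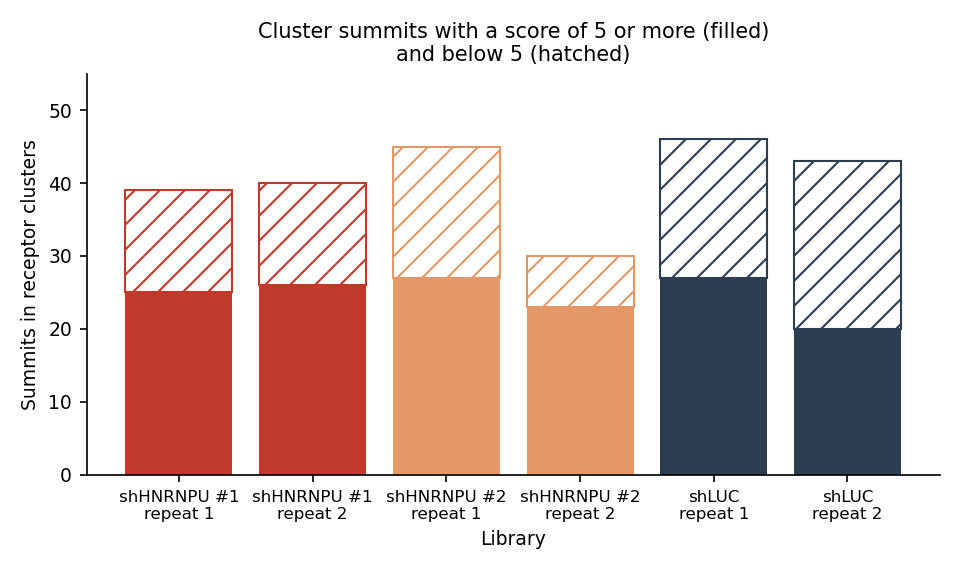
Number of summits in the receptor clusters in each library. The filled part of a bar counts summits scored 5 or more and the hatched part those below 5. The hatched part is 7 to 18 in shHNRNPU and 19 and 23 in shLUC, and the filled part is 23 to 27 and 27 and 20.

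Other measures were compared with and without these low-scored summits. The score percentile and the share below 5 come from the same scores, so they are not separate results. The part of low-scored summits in the differences below was not tested. The median score percentile of cluster summits was 39.0, 54.0, 42.1 and 53.6 in shHNRNPU and 38.3 and 33.9 in shLUC, a difference of 11.1 with no overlap (exact p = 0.133). When summits scored under 5 were left out, the difference had the opposite sign, −10.4 (exact p = 0.133). The median distance from a member to the nearest summit was 47.9 ± 2.2 kb (SD, n = 4) in shHNRNPU and 41.8 ± 1.0 kb (SD, n = 2) in shLUC, with no overlap (exact p = 0.133). Without summits scored under 5 this difference went from 6.07 to −2.53 kb (exact p = 0.8). With lists cut to the same number of best-scored summits it was 5.84 kb. Within 50 kb of a summit lay 50.0% to 54.2% of the members in shHNRNPU and 56.5% and 57.7% in shLUC. Over all protein-coding genes this share also had no overlap and the same direction, at 93.7% to 94.8% and 94.9% in both shLUC libraries. Receptor genes on other chromosomes showed the same order, with medians of 50.1 to 61.6 kb in shHNRNPU and 49.8 and 49.9 kb in shLUC. In the other protein-coding genes of chromosome 11 the medians overlapped, at 0.19 to 0.22 kb and 0.21 to 0.23 kb.

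**Figure D5:**
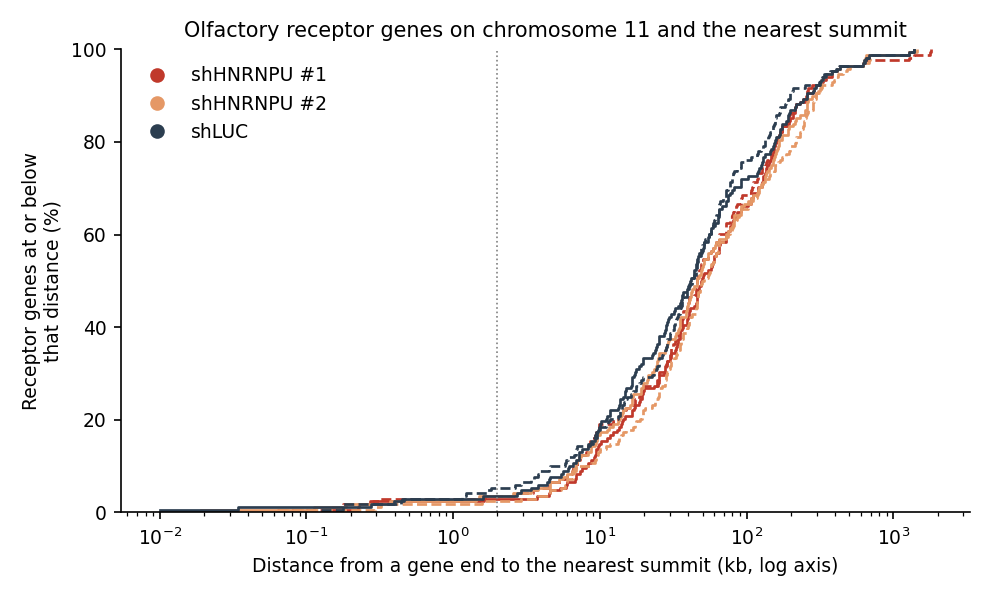
Cumulative share of the 168 placed receptor genes (%) against the distance from the nearer gene end to the nearest summit (kb, log axis). Each line is a library, coloured by hairpin, solid for repeat 1 and dashed for repeat 2, and the dotted line marks 2 kb. At 50 kb the shLUC lines have reached 56.5% and 57.7% and the shHNRNPU lines 50.0% to 54.2%, where all protein-coding genes (not drawn) reach 94.9% in both shLUC and 93.7% to 94.8% in the shHNRNPU libraries.

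Genes that work with the receptors were not closed as a group. The counts below stand beside 74.0% to 76.0% of all 19866 protein-coding genes open per library, and 69.0% open in all 6. These short lists were not tested against those shares. Of 14 genes of olfactory signal transduction and receptor trafficking, 9 to 10 were open per library and 8 in all 6, among them GNAL, the olfactory G-protein subunit, ADCY3, its adenylyl cyclase, and REEP1, a receptor-trafficking protein. OMP, the olfactory marker protein, CNGA2, a subunit of the olfactory cyclic-nucleotide channel, and STOML3 were open in none. RTP2, a receptor transport protein, had 1 summit in each shHNRNPU library and 0 in both shLUC libraries. Of 11 factors tied to receptor choice, 9 to 10 were open per library. EBF2 had 2 summits in each shHNRNPU library and 1 in each shLUC library, and LDB1, the partner of LHX2, had 1 in each shHNRNPU library and 2 and 3 in shLUC. NFIB was open in none. All 10 genes for heterochromatin proteins, among them SETDB1, TRIM28 and LBR, were open in all 6 libraries, and none separated the groups. These separations stand beside the background of 0.992% and 1.02% and rest on 0 to 3 summits a gene in a library.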

How the data were processed

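ATAC-seq summits of 6 libraries were analysed. Per the labels, the submitters' processing notes name cutadapt, Bowtie2, SAMtools, MACS2 and deepTools with the build hg38, and no versions, parameters or treatment of multiply mapped reads are given in the sources used here. Each deposited list gives a summit position and a score, the −log10 of a q-value, as the authors' peak caller wrote it for that library alone. Read depth is unknown. The lists were used whole, at the q-value threshold they came with.

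Gene positions and promoters came from RefSeq tables of GRCh38.p14. Protein-coding genes positioned on alternate scaffolds were left out (171 genes, 3 of them members). Windows of 2000 bp around both gene ends, clusters (gaps of at most 100 kb) and loci (250 bp) were computed with Python 3.11.15, numpy 2.4.6 and pandas 2.3.3, and the steps were tested on simulated data. Groups were compared with an exact two-sided permutation test over libraries (15 assignments, smallest p = 0.133), and densities with an exact sign-flip test (smallest p = 0.03125). Nothing states that repeats are separate cultures, so p-values measure the spread between these libraries, which may be technical, and the 4 shHNRNPU libraries share 2 hairpins. Members, lists and tests were chosen with earlier results of these data known. Named members were up to 12 open in most libraries, any that separated the groups, and the strongest in each cluster. Named non-members were genes inside clusters open in every library, beta-globins and the listed genes. TRIM51, TMEM225, OR51S1 and the loci named by position were chosen after their values were seen. Of 5 erythroid markers, 1 to 2 were open per library. Alternatives changed the window, the cluster gap, the joining distance, the score threshold, the list length, the libraries and the replicate block.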

Additional observations from a re-analysis of the deposited data

How the results depend on the processing

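Both log2 density ratios kept their direction in all alternatives run. At the members' ends the ratio was −4.60 with windows of 500 bp and −3.77 with 5000 bp, and in the clusters it was −1.69 with gaps of 50 kb and −1.22 with 500 kb. When each library was left out in turn, the ratios stayed between −4.58 and −4.34 and between −1.51 and −1.42, with an exact sign-flip p of 0.0625, the smallest that 5 libraries allow. Without summits scored under 5, the difference in cluster share turned from −0.00613 to 0.00637 percentage points, the percentile difference to −10.4 and the distance difference to −2.53 kb. The density difference at the ends then was 0 summits per Mb, with 0 lost and 3 gained loci. Lost loci numbered 2 with clusters joined over 500 kb, and gained loci 2 when joined within 100 bp. Leaving out 1 library gave 1 to 15 lost and 1 to 5 gained loci, with 13 and 15 lost without shLUC repeat 1 or 2, where a lost locus needs a single shLUC library. Without shLUC repeat 1, gained loci numbered 5, and without repeat 2, 3.

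Same-numbered libraries had correlations of −0.0438, −0.0127 and −0.00272 in their deviations, over the 25519 loci listed in all 6 libraries. No pairing by repeat number was seen there, which cannot exclude a shared culture or batch. With the replicate block the differences stayed at −2.25 open members, −0.00613 percentage points of share, −1.93 summits per Mb, 11.1 percentile points and 6.07 kb, and the smallest p that 9 assignments allow was 0.222. Of the group comparisons, p could not fall below 0.133 in the test used, so their significance was not testable at this number of libraries. Alternatives for the distance to the nearest summit, and the threshold at the median score, were chosen after seeing the data.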
